A study of Caenorhabditis elegans with 2 samples.

Results

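Of 1002 peaks of the tagged AP-2 family protein APTF-2 in Caenorhabditis elegans, 212 had their summit inside the body of a protein-coding gene and away from every promoter window. The peaks were the 892 of the authors' conservative list and the 110 of their other thresholded list that overlapped none of these. A summit was taken as a gene-body summit when it lay in a protein-coding gene of the Ensembl WBcel235 annotation but outside every promoter window, defined as 1000 bp before to 200 bp after the start of a protein-coding transcript. No signal value entered that rule. Of the gene-body summits, 185 came from the conservative list and 27 from the other list alone. The remaining peaks comprised 554 promoter summits and 236 intergenic summits, which served as comparators.

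Binding had been measured by ChIP-seq, in which an antibody to GFP pulled down the tagged protein with its DNA, in whole young adults at 61.5 h, in 2 biological replicates that form a single group. All animals were of strain RW12304, in which a CRISPR insertion, aptf-2::TY1::EGFP::3xFLAG, tags the protein made from the aptf-2 locus. Worms were grown from starved first-stage larvae obtained by bleaching, and the chromatin was sheared to 200 to 800 bp. No untagged strain, other age or other factor was analysed here, so all comparisons are between places in the genome and none is between animals.

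AP-2 proteins are transcription factors that bind DNA as dimers, usually at GC-rich palindromes, and in worms members of the family act in epidermal and neuronal development. Transcription factors bind both at promoters and inside genes, where introns can hold enhancers. Worm introns also hold many complete small RNA genes. Genes for transfer RNAs (tRNAs) carry an internal promoter with an A-box and a B-box that recruits RNA polymerase III. Small nuclear RNAs (snRNAs) act in splicing, and small nucleolar RNAs (snoRNAs) guide the chemical modification of ribosomal and other RNAs. A summit in an intron can therefore lie at the start of another gene.

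Sequences at 5 snoRNA genes nested in introns are shown first, because their 5′ ends lay at or close to strong summits. Each line gives the 20 bases before the snoRNA in lower case and its first 10 bases in capitals, on the snoRNA's own strand, read from the WBcel235 genome.
die-1 intron, chrII:10065811-10065840, plus strand: gaatggtccctccgaacgcgTCAAAAGGCT
C08D8.1 intron, chrV:8349088-8349117, plus strand: ccgctgggaagttctatcatCACTTGTTAC
pxn-1 intron, chrV:8500559-8500588, plus strand: tagcgacgacgctttggcgaGCGCAATGAA
cutl-18 intron, chrV:11314238-11314267, plus strand: cacacccgagttcaattcccGCCTGTGATG
pdl-1 intron, chrII:7184069-7184098, minus strand: tctcgcgttcgttccctcgtGTTGTCAGTG

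Letters of the tRNA B-box were present in the windows of 100 bp either side of 24 of the 212 summits (11.3%). Of these 24, 20 lay near an annotated tRNA gene. The next lines show the B-box core GGTTCGA in capitals in 3 introns that hold a tRNA gene and in 1 that holds a pair of snoRNA genes.
him-4 intron, chrX:9743628-9743657, plus strand: gagaagtctggGGTTCGAttccccatacct
ZC455.1 intron, chrV:12780390-12780419, minus strand: attgcccgcgtaGGTTCGAaccctgctcgc
col-99 intron, chrIV:144022-144051, plus strand: cgaagactgcaGGTTCGAgtcctgcctcgg
frm-7 intron, chrV:12303652-12303681, plus strand: gaggcttcgttGGTTCGAcccccgcgcgta

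The AP-2 palindrome GCCNNNGGC and the E2F site, in which the forms TTTCCCGC, TTTCGCGC, TTTGCCGC and TTTGGCGC were searched, bear on the tagged factor and on a family of cell cycle regulators. Each is capitalised at the 2 members of highest signal that hold it, and E2F also at M70.1 and srxa-14, chosen after their sequences had been seen to be alike.
Y49E10.30 intron, AP-2, chrIII:12387462-12387491, plus strand: cgaatgaaccGCCCCCGGCattcttcccag
pdl-1 intron, AP-2, chrII:7184035-7184064, plus strand: caaacactatGCCTGGGGCggtaagtaata
uso-1 intron, E2F, chrIV:13450886-13450915, minus strand: tttaaatatttTTTCCCGCctttttttaaa
kcc-1 intron, E2F, chrIV:7211477-7211506, minus strand: gcaaatgtcatTTTCGCGCgttcatccttt
M70.1 intron, E2F, chrIV:2246307-2246336, minus strand: tgagtcccgcaTTTCGCGCctcgctcagct
srxa-14 intron, E2F, chrV:20640500-20640529, minus strand: tgaggccagccTTTCGCGCctcactcagct
The last 2 sequences, from different chromosomes, matched at 26 of their 30 bases.

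Gene-body summits lay mainly in introns. Introns held 152 of the 212 (71.7%, 95% Wilson interval 65.3 to 77.3), coding exons 53 (25%, 19.7 to 31.2) and untranslated exons 7 (3.30%, 1.61 to 6.66). Of the 48.9 Mb of gene body outside promoter windows, introns made up 55.7%, coding exons 38.8% and untranslated exons 5.47%. Summits were therefore found at 5.58 per Mb of intron, against 2.79 per Mb of coding exon and 2.62 per Mb of untranslated exon. These densities include summits within 200 bp of a non-coding RNA gene, which were 66 in introns, 3 in coding exons and 2 in untranslated exons. With those set aside, 86 summits remained in introns, 50 in coding exons and 5 in untranslated exons. The gap between introns and coding exons was then smaller. No densities were computed for these remaining summits, so the densities above do not describe them. Intervals here and below cover the counting of peaks only, because peaks and not animals are the units, and read depth is unknown from peak lists.

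The deposited signal, a score whose scale the authors do not state, was lower in gene bodies than elsewhere in the conservative list. Its median was 91.9 for gene-body peaks (quartiles 81.9 and 113, n = 185), 111 for promoter peaks (n = 493) and 102 for intergenic peaks (n = 214). Of the gene-body peaks, 34.1% lay above the median of the whole list, compared with 57.8% of promoter and 45.8% of intergenic peaks. Within gene bodies the median was 96.5 in introns, 85.0 in coding exons and 84.2 in untranslated exons. The upper range was mostly intronic: of the 20 strongest gene-body peaks, 18 lay in introns, 1 in a coding exon and 1 in an untranslated exon. Among the weakest were 8 peaks that share their replicate peaks with a stronger neighbour and repeat it, such as the second peaks of zfp-1 (4.86) and col-103 (2.59).

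**Figure D1:**
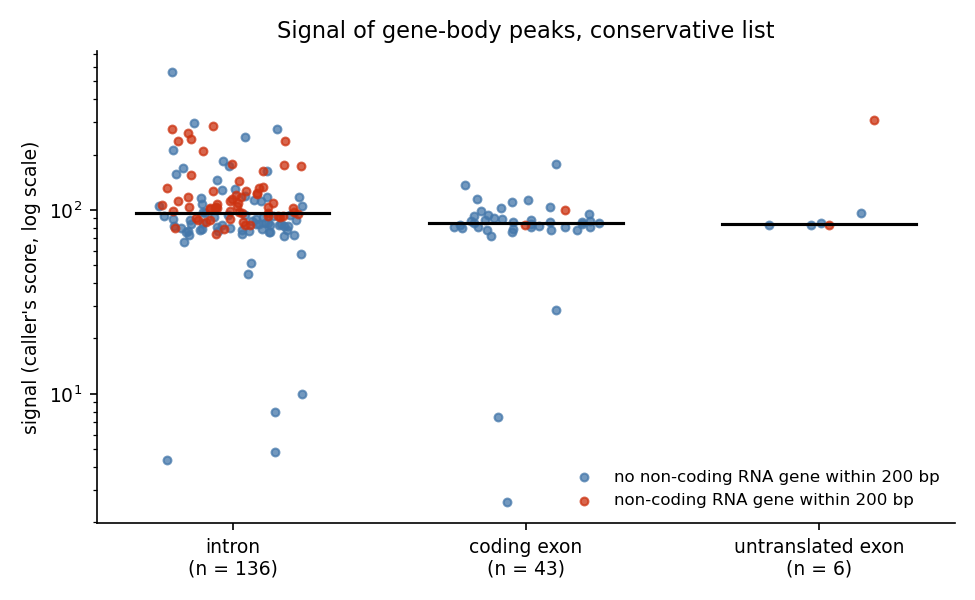
Signal of the 185 gene-body peaks of the conservative list on a log axis, by the place of the summit, with 1 point per peak, the median as a line and colour for a non-coding RNA gene within 200 bp. Introns hold 18 of the 20 strongest peaks, and the coding exon peaks cluster around their median of 85.0.

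The strongest gene-body peak lay in the first intron of H37A05.4 (chrV:13647698-13647967). Its signal was 560 in the conservative list, 279 in replicate 1 and 278 in replicate 2. The window of 100 bp either side of this summit had 3 similar copies elsewhere in the genome, where a copy is a match of at least 100 bp at 90% identity. No annotated non-coding RNA gene lay within 200 bp of it. Signals of the replicates and of the conservative list are not on a shared scale, so strength is compared only within a list. Ratios and correlations between the replicates are given below as descriptions.

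Next came an untranslated-exon peak in F56H6.2, at 307, with 143 in replicate 1 and 154 in replicate 2. That summit lay inside an annotated snRNA gene, C47F8.9, and a further F56H6.2 peak lay inside the snRNA gene F56H6.15 in an intron (237, with 137 and 104 in replicates 1 and 2). Both windows belong to a repeated family, with 19 and 17 similar copies. Reads from near-identical copies can be assigned to any of them, so how much of the signal belongs to these copies is uncertain. F08G2.8 gave the same picture, with an intronic peak inside the snRNA gene F08G2.11 at 276 (140 in each replicate) and 19 copies.

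Peaks in unique sequence reached the same range. In die-1, which encodes a zinc finger transcription factor, a peak in the 3364 bp first intron had a signal of 286, with 149 in replicate 1 and 131 in replicate 2. Its summit was 53 bp upstream of the snoRNA gene C18D1.21. C08D8.1 had a peak of 242 (124 and 117 in replicates 1 and 2) with its summit 5 bp upstream of the snoRNA gene C08D8.3. pxn-1, which encodes a peroxidasin of the extracellular matrix, had a peak of 209 (112 and 98.8) 4 bp upstream of the snoRNA gene ZK994.7. In none of these 3 windows was a similar copy found.

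Other strong intronic peaks lay at tRNA genes or at other RNA genes. rsa-2, whose product acts in spindle assembly, held a peak of 262 (148 in replicate 1 and 115 in replicate 2) whose summit was 9 bp upstream of a tRNA gene on the minus strand and 99 bp upstream of a tRNA gene on the plus strand. ints-8, a subunit gene of the Integrator complex, held a peak of 238 (105 and 117) inside rpr-1, the gene for the RNA of RNase P. him-4, which encodes hemicentin, held a peak of 155 (65.4 and 82.1) between a pair of tRNA genes.

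Not all strong peaks were near an annotated RNA gene. cmk-1, a calcium/calmodulin-dependent kinase gene, held a peak of 276 in its second intron (122 in replicate 1 and 131 in replicate 2), with 1 similar copy. T10C6.7 held an intronic peak of 248 (113 and 132) near a pseudogene. kcc-1, a potassium-chloride cotransporter gene, held a peak of 168 (90.5 and 85.4), and sre-45, a chemoreceptor gene, held a peak of 185 (103 and 81.2), both in unique sequence with no RNA gene within 200 bp. Among the 20 strongest, 11 lay within 200 bp of a non-coding RNA gene, 9 had a similar copy and 4 had neither.

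Coding exon peaks were weaker and seldom listed in both replicates. The strongest was in srlf-30 at 177 (86.2 in replicate 1 and 89.2 in replicate 2), followed by dos-3, which encodes a Notch co-ligand, at 136 (59.7 and 71.8). acn-1, an angiotensin-converting enzyme-like gene needed for moulting, held a peak of 115 (50.9 and 70.5). T26H5.8 held one of 113 (56.9 and 60.1), and kpc-1, a proprotein convertase gene, held one of 110 (34.2 and 74.7). Apart from the F56H6.2 peak, untranslated exons held 5 conservative-list peaks, led by C34C12.2 at 95.9, cyn-17 (a cyclophilin gene) at 85.1, F46C5.1 at 83.2 and vab-1 (the ephrin receptor gene) at 83.0.

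Of the 27 gene-body peaks found in the other thresholded list alone, the strongest lay in daf-16, the FOXO factor gene of insulin signalling. Its signal there was 110, with 73.6 in replicate 1's ranked list and 31.5 in that of replicate 2. An ncRNA gene lay within 200 bp. lelo-2 followed at 104 and npr-33, a neuropeptide receptor gene, at 101.

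Each replicate also has a thresholded list of its own, with 350 peaks in replicate 1 and 403 in replicate 2. Of all 1002 peaks, 23.6% were listed in both. Among gene-body summits 28 were (13.2%, 9.30 to 18.4), 19 were listed in replicate 1 only, 30 in replicate 2 only and 135 in neither. Promoter summits were listed in both more often, at 28.2%, a gene-body minus promoter difference of -14.95 percentage points (two-sided Fisher's exact test, adjusted p = 5.86e-05). The intergenic share was 22.03% and the difference of -8.83 points did not pass (Fisher's exact test, adjusted p = 0.0682). All p-values were adjusted by Benjamini-Hochberg over 22 tests, treat peaks as units and say nothing about further animals.

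All of the 20 strongest gene-body peaks were listed in both. The replicates' own lists are themselves thresholded, so this was largely set by how peaks were listed. Within the stronger 50% of each list, with 64 gene-body summits, the difference from promoters was -10.96 points and no longer passed (Fisher's exact test, adjusted p = 0.354). That set is smaller, so not passing does not show that the gap was absent there. Introns held 25 of the 28, coding exons 2 (srlf-30 and dos-3) and untranslated exons 1. Of the 28, 14 lay near a non-coding RNA gene, 12 had a similar copy and 7 had neither, among them zip-7 at 129 (64.1 in replicate 1 and 61.97 in replicate 2). Also among the 7 was mdt-26, at only 4.37 in the conservative list, whose overlapping replicate peaks had 98.1 and 88.8.

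In the longer ranked lists, which hold peaks before thresholding, 210 of the 212 were present in both replicates. The 212 came from lists derived from both replicates, so this presence was largely set by how they were listed. Over these 210 peaks the replicate signals gave a rank correlation (Spearman's rho) of 0.23 and a linear one (Pearson's r, log10 signals) of 0.58, and without the 2 peaks farthest from the replicate 1 median these were 0.21 and 0.51. These are correlations across peaks of the same pair of libraries and carry no test. The ratio of replicate 1 to replicate 2 had a median of 1.00 and lay within 1.5-fold for 174 peaks. With the scale of the scores and the read depth unknown, this ratio is a description and not a measure of replicate agreement. Over the 28 peaks listed in both, rho was 0.77, but these were selected for passing the threshold in each replicate.

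**Figure D2:**
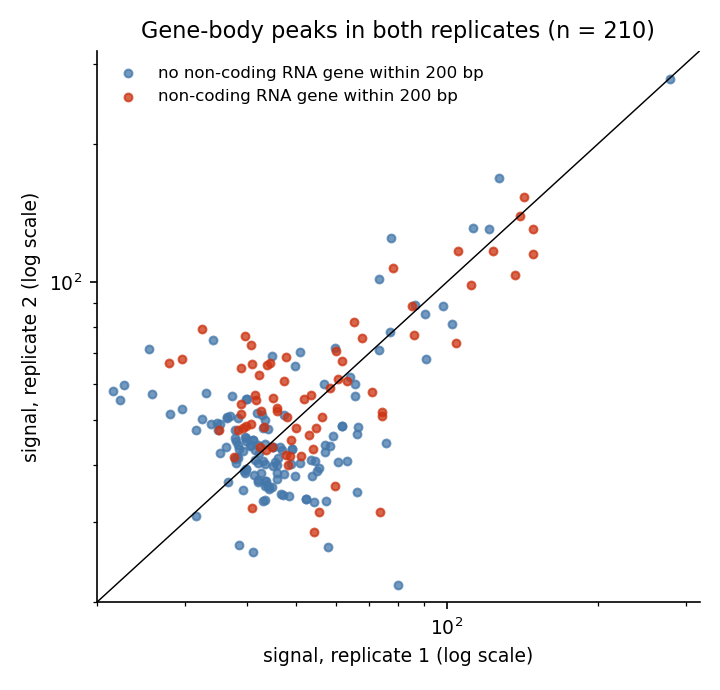
Signal of 210 gene-body peaks in the ranked list of replicate 1 (x axis, log scale) and of replicate 2 (y axis, log scale), with the line of equality and colour for a non-coding RNA gene within 200 bp. The few strong peaks lie near the line up to 279 and 278. In the cloud of lower signals the ratio of these scores, whose scale is not stated, reaches 3.67.

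About 1 in 3 gene-body summits lay close to a non-coding RNA gene. Within 200 bp of a non-coding RNA gene lay 71 of the 212 summits (33.5%, 27.5 to 40.1), while 5.34% of gene-body bases outside promoter windows lie that close. The share over all 1002 peaks was 25.5%. It was 16.8% for promoter summits, 16.7 points lower (two-sided Fisher's exact test, adjusted p = 2.47e-05), and 39.0% for intergenic summits, a difference of -5.49 points that did not pass (Fisher's exact test, adjusted p = 0.478). With a wider promoter window of 2000 bp upstream to 500 bp downstream the gap to promoters was 7.19 points and did not pass (Fisher's exact test, adjusted p = 0.232).

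The classes of RNA gene differed widely. Genes for tRNAs lay within 200 bp of 28 summits (13.2%, against 0.229% of bases), snoRNA genes of 19 (8.96%, against 0.161%) and snRNA genes of 12 (5.66%, against 0.0539%). Short genes annotated only as ncRNA lay near 36 summits (16.98%, against 2.47%). A single summit, in an intron of the peroxisomal gene prx-1, lay at a microRNA gene. Piwi-interacting RNA (piRNA) genes, which are short and very many, lay near 0 of the 212 summits (upper 95% Wilson limit 1.78%), although 2.42% of the bases are that close to one. Introns held 66 of the 71 summits near any non-coding RNA gene, coding exons 3 and untranslated exons 2.

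**Figure D3:**
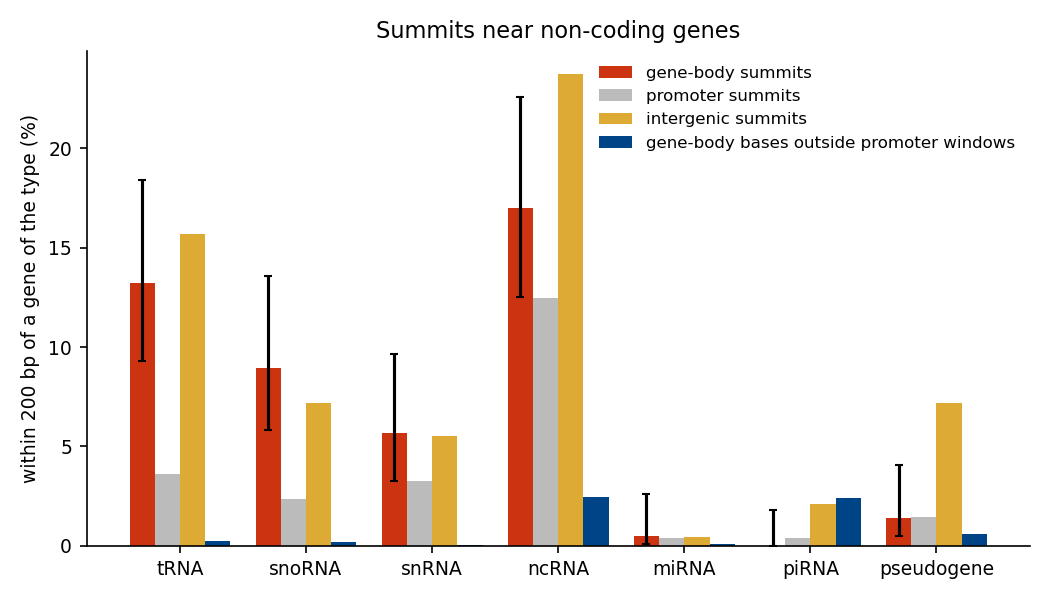
Share in percent of gene-body (n = 212), promoter (n = 554) and intergenic (n = 236) summits within 200 bp of a gene of each non-coding type or a pseudogene, and the share of gene-body bases that lie as close. Bars start at 0 and the error bars on gene-body summits are 95% Wilson intervals, with tRNA at 13.2% against 0.229% of bases.

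Counted from the side of the RNA genes, most had no gene-body summit. Of 235 tRNA genes lying wholly in gene bodies outside promoter windows, 29 had one within 200 bp (12.3%). The figures were 20 of 142 snoRNA genes (14.1%), 11 of 49 snRNA genes (22.4%), 1 of 74 microRNA genes and 0 of 5087 piRNA genes. In bulk whole animals, a gene bound in few cells and one bound weakly in many cannot be told apart. Genes with no summit here lacked a gene-body summit in the thresholded lists. Promoter and intergenic summits near them, and peaks of the ranked lists, were not counted.

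Summit positions were measured from the 5′ end of the RNA gene, on its own strand. At tRNA genes, 20 of 30 summit and gene pairs had the summit inside the gene, and for these 20 the median was 18 bp from the 5′ end (quartiles 7 and 30). Over all 30 pairs the median was 14.5 bp, and the median gene length was 73 bp. None of the 20 inside was listed in both replicates, and their signals ran from 78.4 to 163. At snoRNA genes 14 of 20 pairs had the summit upstream of the gene, at positions from -81 to -2 bp with a median of -37 bp, while the median over all 20 pairs was -5.5 bp. At snRNA genes 10 of 12 had it inside, and for these 10 the median was 75 bp from the 5′ end. Of the tRNA pairs, 14 had the RNA gene on the host's strand and 16 on the other. Of the 20 snoRNA pairs, 14 had it on the host's strand. The strand split of all nested tRNA and snoRNA genes was not counted, so neither split is read as a trait of genes with summits.

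**Figure D4:**
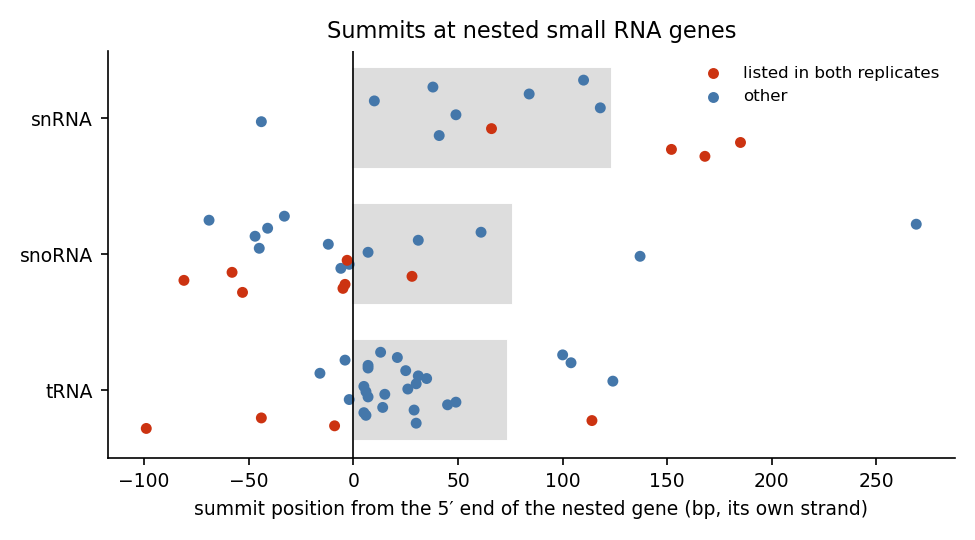
Position of the summit in bp from the 5′ end of the nested gene, on that gene's strand, for 30 tRNA, 20 snoRNA and 12 snRNA pairs, with the median gene length shaded and colour for listing in both replicates. Of the tRNA points 20 of 30 lie inside the gene, and of the snoRNA points 14 of 20 lie before the 5′ end.

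The strongest summits inside tRNA genes were in sulp-3, a sulphate permease family gene (163, with 85.8 in replicate 1 and 76.8 in replicate 2), F52C9.5 (133, with 70.9 and 57.7) and dos-1, another Notch co-ligand gene (127, with 63.2 and 60.8). Further snoRNA sites were in cutl-18 (174, with 85.1 and 88.6, summit 58 bp upstream of T03F7.8), rbm-34 (132, with 60.8 and 61.5, 6 bp upstream of F11A10.9) and pdl-1 (120, 3 bp upstream of C27H5.9). Genes of the trans-spliced leader SL2, annotated as snRNA genes and used to splice the downstream genes of operons, lay at 3 summits: sls-2.15 and sls-2.14 in W09D6.5 (108 and 90.7) and sls-2.16 in the glutamate receptor gene glr-2 (87.7). These peaks were of middling rank, and none was listed in both replicates.

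The B-box core GGTTCGA, searched on both strands of the windows of 100 bp either side of the summit, was present at 24 gene-body summits (11.3%, 7.73 to 16.3). It was present in 1.47% of 243543 windows of that length tiled over gene bodies outside promoter windows. Promoter summits held it in 2.71%, a difference of 8.61 points (two-sided Fisher's exact test, adjusted p = 5.86e-05), and intergenic summits in 13.6% (Fisher's exact test, adjusted p = 0.682). Of the 24, 20 lay near an annotated tRNA gene, and of the 184 gene-body summits with no tRNA gene near, 4 held it (2.17%). Those 4 were the frm-7 and Y43F8C.7 sites, both at snoRNA genes, the unc-104 site at a pseudogene, and the weak mdt-26 peak (4.37). The promoter difference kept its direction but did not pass without replicate 2 (Fisher's exact test, adjusted p = 0.137) or with the promoter window of 2000 bp upstream to 500 bp downstream (Fisher's exact test, adjusted p = 0.232).

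The sequences before the snoRNA genes led to a search chosen after they had been seen. The longer B-box form GTTCNANNC occurred, on the snoRNA's strand, in the 100 bp before 6 of the 20 snoRNA genes with a gene-body summit (30%) and before 9 of the 122 nested snoRNA genes without one (7.38%). In the cutl-18 line above it starts 11 bases before T03F7.8, and it starts 44 bases before C51F7.3 in frm-7 and 9 bases before Y43F8C.22 in Y43F8C.7. No test was made of this split, and a match of letters is not a bound site. Inside the 29 tRNA genes with a summit the same form was found in all 29, as it was in 198 of the 206 without one (96.1%).

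E2F letters were less frequent at gene-body summits than at promoters. They were found at 15 gene-body summits (7.08%, 4.33 to 11.3), at 14.1% of promoter summits (difference -7.004 points, two-sided Fisher's exact test, adjusted p = 0.0396) and at 10.2% of intergenic summits (Fisher's exact test, adjusted p = 0.513). The tiled gene-body windows held them in 3.05%. The promoter difference did not pass in windows with no similar copy (Fisher's exact test, adjusted p = 0.0690) or in windows of 250 bp either side of the summit (Fisher's exact test, adjusted p = 0.292). It did not pass without replicate 1 or without replicate 2 either (Fisher's exact test, adjusted p = 0.263 and 0.425), nor in the other thresholded list alone (Fisher's exact test, adjusted p = 0.0573) or the stronger 50% of each list (Fisher's exact test, adjusted p = 0.143). The strongest peaks with E2F letters were those of uso-1, a vesicle tether gene (174, with 73.2 in replicate 1 and 102 in replicate 2), whose window has 41 similar copies, and kcc-1.

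The AP-2 palindrome was rare, at 8 gene-body summits (3.77%, 1.92 to 7.27) against 2.53% of promoter summits, 2.54% of intergenic summits and 0.930% of tiled windows. Y49E10.30 held the strongest of these (295, with 127 in replicate 1 and 169 in replicate 2), in a window with 7 similar copies. Its palindrome starts 72 bp before the summit and lies outside the called peak (chrIII:12387504-12387582). LAG-1 letters, GTGGGAA or ATGGGAA, were at 19 summits (8.96%). Promoter summits held them in 9.93%, intergenic summits in 10.59% and tiled windows in 5.73%. Among the 19 were H37A05.4, die-1, sre-45, srlf-30 and an intron of lag-1 itself. That gene encodes the Notch pathway's DNA-binding factor, and its peak was 105 (63.1 in replicate 1 and 40.8 in replicate 2).

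The GC-rich letters GGGCGG of SP1 and KLF factors were in 13.2% of the summit windows (2.86% of tiled windows) and GAGAGA in 19.3% (9.13%). Promoter and intergenic summits held GGGCGG in 11.55% and 9.75%, and GAGAGA in 25.99% and 27.54%. TGATAA or AGATAA, the GATA factor letters, were in 15.6% (25.9%) and a run of 8 T in 7.55% (21.9%). Promoter and intergenic summits held the GATA letters in 13% and 14.83%, and the run of T in 13.18% and 9.75%. Median GC content was 47.3% in the summit windows and 36.3% in the tiled windows, so the tiled shares are given as levels and not as a test. For these 4 motifs, AP-2 and LAG-1, no difference from promoter or intergenic summits passed the threshold in the main setting. In other settings some did. Against promoters 3 motifs passed with the promoter window of 500 bp upstream to 100 bp downstream, and 3 in motif windows of 50 bp either side. In motif windows of 250 bp either side 2 passed, although E2F did not. Each of these sets therefore held a motif other than E2F and the B-box.

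**Figure D5:**
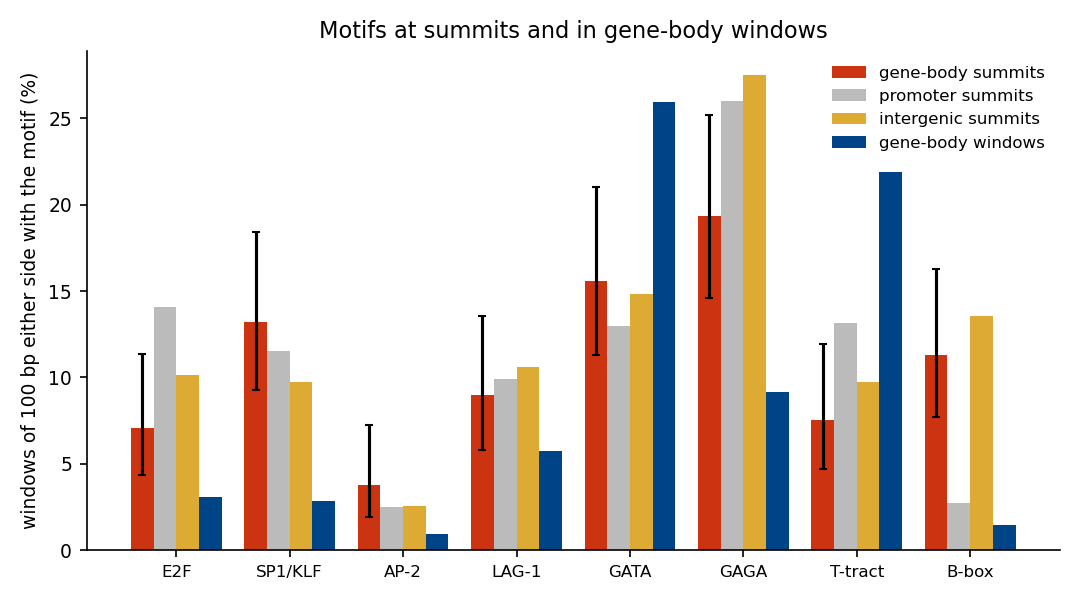
Share in percent of windows of 100 bp either side that hold each of 8 motifs, for gene-body, promoter and intergenic summits and for 243543 tiled gene-body windows. Bars start at 0 and error bars on gene-body summits are 95% Wilson intervals; the B-box bars read 11.3%, 2.71%, 13.6% and 1.47%.

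Similar copies of the summit window were common. Of the gene-body summits 58 had one (27.4%, 21.8 to 33.7), where all 1002 peaks had 23.4%, promoter summits 16.1% and intergenic summits 36.9%. The difference from promoters was 11.3 points (two-sided Fisher's exact test, adjusted p = 0.00366) and that from intergenic summits was -9.51 points and did not pass (Fisher's exact test, adjusted p = 0.0936). With the wider promoter window of 2000 bp upstream the promoter difference was 9.13 points and did not pass (Fisher's exact test, adjusted p = 0.0899). Without replicate 2 it was 14.9 points and did not pass either (Fisher's exact test, adjusted p = 0.183). The 58 had a median of 3.5 copies and up to 429, 18 of them lay near a non-coding RNA gene, and 51 were intronic. The sources used here do not say how reads with several matches were placed, so their part in these peaks was not tested.

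After setting aside the summits near any non-coding RNA gene, 141 remained. They comprised 86 in introns, 50 in coding exons and 5 in untranslated exons, with a median signal of 84.9 in the conservative list and 14 listed in both replicates. The 60 near a tRNA, snRNA, snoRNA or microRNA gene comprised 57 in introns, had a median of 107 and 12 listed in both.

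The 212 summits lay in 199 host genes, which is 1.08% of the 18510 protein-coding genes with sequence outside promoter windows. Host genes were long, with a median of 5889 bp against 2182 bp for all such genes, and a longer gene offers more sequence in which a summit can fall. Within the gene, 65 summits lay in the first part when its length was divided equally by 3, 72 in the middle part and 75 in the last. Of 148 intronic summits with an intron number, 29.7% lay in a first intron, and 27.3% of 27191 evenly spaced intronic positions did. Introns of 200 to 500 bp held 22.97% of these summits and 16.9% of the positions, introns over 1000 bp 43.2% and 46.7%, and introns under 100 bp 2.03% and 8.48%.

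Distance to the edge of the promoter window was also counted. Of the summits, 9 lay up to 100 bp beyond the downstream edge of the nearest promoter window and 0 lay up to 100 bp beyond an upstream edge. Up to 1000 bp beyond an upstream edge lay 16. The share of gene-body bases at these distances was not computed, so whether these counts are low was not tested. With the promoter window of 2000 bp upstream to 500 bp downstream, the number of gene-body summits fell from 212 to 153. Examples close to the downstream edge were cyn-17 at 206 bp from the start (85.1), vha-11 at 226 bp (88.9) and F56H6.2 at 228 bp (307). For 170 summits the nearest start was one of the host gene's own.

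A few host genes held more than 1 summit. There were 13 of them, and only tos-1, known as a target of splicing regulators, held 3, all in introns (86.8, 78.3 and 92.5). let-805, which encodes the epidermal receptor myotactin, held 2 in coding exons (86.3 and 80.9), 1374 bp apart. In zfp-1, arrd-19, col-103, brc-1, slx-1 and F09F7.5 the pair lay 199 to 223 bp apart and traced back to the same replicate peaks, so each of these pairs is a single measurement.

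Host genes were sorted by lists of gene families, described by counts beside the 1.08% of all eligible genes and, since genes differ in length, by summits per Mb of their sequence outside promoter windows beside 4.33 per Mb overall. Of 66 epidermal junction, cytoskeleton and fate genes, 6 held a summit (9.09%, 4.23 to 18.5), with 11.7 summits per Mb. These were the Grainyhead factor gene grh-1 (92.1), let-805, the beta-spectrin gene unc-70 (86.2, 69 bp upstream of a snoRNA gene), the TCF gene pop-1 (85.9), the apical junction gene ajm-1 (85.3) and the spectraplakin gene vab-10 (84.2). None of these 7 peaks was listed in both replicates, and all were below the gene-body list's median except grh-1.

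Of 72 synaptic genes 5 held a summit (6.94%, 3.00 to 15.3), with 9.48 summits per Mb. They included mod-5, the serotonin transporter gene (157, with 77.1 in replicate 1 and 78.02 in replicate 2). The mod-5 window had 8 similar copies. At nested snRNA genes lay the unc-31 (126) and glr-2 summits. The others were in unc-104, a kinesin gene (113, near a pseudogene and with 3 similar copies), and in cat-1 (82.9, 4 bp upstream of a tRNA gene). Cuticle collagen and cuticle genes had 5 of 190 (2.63%, 19.01 summits per Mb), of which col-99 and col-85 were at tRNA genes and rol-3 at a snoRNA gene. Germline RNA and meiosis genes had 4 of 101 (3.96%, 16.6 per Mb). Of these, brd-1 had its summit inside a tRNA gene, and the brc-1 windows had 7 and 98 similar copies. The lag-1 site had neither an RNA gene near it nor a similar copy. Both densities count repeats: the 6 cuticle summits include both col-103 peaks, and the 5 germline summits both brc-1 peaks. Each of these pairs is a single measurement, so both densities are raised by it. The overall 4.33 per Mb also counts 8 repeating peaks. The adhesion, chromatin, ion channel and muscle structure lists had a higher share of genes than the overall 1.08% but fewer summits per Mb than the overall 4.33. Adhesion genes had 3 of 80 (3.75%, 3.23 per Mb), chromatin genes 2 of 97 (2.06%, 3.97 per Mb), ion channel genes 2 of 152 (1.32%, 2.01 per Mb) and muscle structure genes 1 of 57 (1.75%, 2.102 per Mb). Nuclear hormone receptor genes had 1 of 267 (0.375%, 1.39 per Mb), nhr-17, at a tRNA gene. Homeobox genes had 0 of 91 and ribosomal protein genes 0 of 48, the latter with only 0.0180 Mb of sequence outside promoter windows.

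Across chromosomes, gene-body summits were found at 4.84 per Mb of gene body outside promoter windows on I, 5.62 on II, 5.50 on III, 3.64 on IV, 3.28 on V and 3.45 on X.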

How the data were processed

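APTF-2 ChIP-seq peak lists from 2 biological replicates (1 technical replicate each, per the labels) were analysed as 1 group. Per the README text deposited with the samples, the lists are on assembly ce11 (WBcel235) and were ranked or thresholded by IDR. How reads were aligned and peaks called is not stated in the labels or files used here. Both the deposited signal and the IDR score (up to 1000) are scores of the authors' tools with no stated scale. The deposited −log10 columns hold q values and global IDR and were not tested here. Other deposited columns give positions and summits. No read counts were analysed, so depth is unknown, and a deeper library yields more peaks.

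Summits were placed on the Ensembl release 115 annotation with 29304 protein-coding transcript starts. Where classes overlapped, coding exon came before untranslated exon, and untranslated exon before intron, using exons of protein-coding transcripts only. Peaks counted as listed in a replicate at an overlap of 1 bp. Windows of 100 bp either side of summits were searched for motifs and, with BLAST 2.17.0, for copies of at least 100 bp at 90% identity. Shares were compared by two-sided Fisher's exact test at 0.05 with Benjamini-Hochberg adjustment over 22 tests (SciPy 1.17.1, pandas 2.3.3, NumPy 2.4.6, Python 3.11.15). The functions were tested on simulated data. Named sites were the 20 strongest, the 5 strongest per class, the 3 strongest of the other list, up to 3 per RNA class, hosts with 2 or more summits and up to 4 per gene list. Additional sites named for a motif or a gene list were chosen after their values were seen. Members and lists were chosen with earlier results of these data known.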

Additional observations from a re-analysis of the deposited data

How the results depend on the processing

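Besides the main choices, 17 other settings were tried. Leaving out a replicate replaced the lists from both by the remaining replicate's own: the number of gene-body summits was then 50 to 59, with 82.0% to 86.4% in introns and 11.9% to 16% in coding exons. Near a non-coding RNA gene, the difference from intergenic summits turned positive, at 15.6 to 21.1 points, and 0 to 1 motifs differed from promoters in place of 2. The copy difference from promoters was 14.9 points without replicate 2, which did not pass, and 23.9 points without replicate 1, and shares in both replicates are not defined there. In the other thresholded list alone, the non-coding difference from intergenic summits was 4.01 points and 1 motif differed from promoters. In the stronger 50% of each list there were 64 summits, of which 89.1% were in introns, 9.38% in coding exons and 1.56% in untranslated exons. There the non-coding difference from intergenic summits was 21.9 points, and 1 motif differed from promoters. The differences from promoters no longer passed, at -10.96 points in both replicates and 14.8 points for copies. With the window of 2000 to 500 bp, the differences from promoters were 7.19 points near non-coding genes and 9.13 points for copies, neither passing, and 1 motif differed. With the window of 500 to 100 bp the difference from intergenic summits in both replicates was -10.1 points and passed. There 1 motif differed from intergenic summits and 3 motifs differed from promoters. With 1 start per gene, the differences from intergenic summits passed at -8.82 points in both replicates and -11.1 points for copies. With copies at 80% identity the latter was -12.5 points and passed. Keeping 1 peak per pair of replicate peaks, chosen after seeing the data, gave -9.95 points in both replicates against intergenic summits, which passed. In windows with no similar copy 1 motif differed from promoters, and in motif windows of 50 bp and of 250 bp either side 1 motif differed from intergenic summits. In those of 50 bp, 3 motifs differed from promoters. The cause was not tested in any of these cases. No paired analysis was possible because the replicates form a single group.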
